A study of Mus musculus with 6 samples.

Results

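The cytosolic ribosomal protein genes were taken as all genes of the deposited count tables whose symbols carry the Rpl, Rplp or Rps prefix followed by a number, with Rpsa and without the ribosomal S6 kinases. The rule found 88 of 26286 genes, of which 52 belong to the large and 36 to the small ribosomal subunit. In the RefSeq annotation 84 of these are protein-coding, while Rps3a2, Rps3a3 and Rps12l2 are pseudogenes and Rps4l is a transcribed pseudogene. The genes were counted in regulatory T cells (Treg) of C57BL/6 mice, sorted as CD4+ CD25high cells from spleens and lymph nodes that had been pooled. All mice carried the Blimp1/GFP reporter, in which green fluorescent protein marks cells that express the transcription factor Blimp1, and all sample titles start with BlimpHet. The study compared 3 GFP+ with 3 GFP- libraries, described as biologically independent, and neither the age nor the sex of the mice is given in the sources used here. GFP- replicate 20 and GFP+ replicate 19 were prepared by poly(A) selection, and GFP- replicates 2 and 5 and GFP+ replicates 1 and 4 by an amplification protocol devised for single cells, here called the single-cell protocol. The cells came straight from the animals, with no treatment named.

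A cytosolic ribosome consists of a large subunit, which forms peptide bonds, and a small subunit, which reads the messenger, each built from ribosomal RNA and proteins that are mostly present once per ribosome. Transcripts of ribosomal protein genes are short and abundant, and many begin with a cytosine and a run of pyrimidines, the terminal oligopyrimidine (TOP) motif, through which the mTOR pathway and LARP1 control their translation and stability. Resting T cells keep few ribosomes and make many more after activation, when MYC and mTOR raise ribosome production.

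Depth was 27221562 counts for GFP- and 28354321 for GFP+ with poly(A) selection, and 15224051 to 17601420 counts with the single-cell protocol. Foxp3, the lineage factor of Treg, stood at 1147 to 1854 counts scaled to a library total of 1000000 (CPM) in GFP- and 1520 to 2137 CPM in GFP+ libraries. The single-cell protocol libraries listed 0 for nearly all genes of 3 chromosomes, with 1090 of 1092 on chromosome 3, 1115 of 1115 on chromosome 8 and 1300 of 1300 on chromosome 9, so that the T cell genes Cd3d, Cd3e, Cd3g and Cd2 were at 0 there. Counts of replicates differed far beyond counting noise, with a chi-square per degree of freedom of 182.9 between the GFP- and 88.9 between the GFP+ single-cell protocol replicates. Markers of myeloid cells moved with the populations: 12 of 12 tested were called higher in GFP+, and the 14 listed markers summed to 34.8, 22.2 and 16.0 CPM in GFP- (replicate 20, 2, 5 in turn) and to 1591, 979.5 and 1401 CPM in GFP+ (replicate 19, 1, 4 in turn). Red cell genes summed to 57.5, 136.9 and 307.6 CPM in GFP- and to 167.7, 727.4 and 1417 CPM in GFP+ libraries, and 2 of 4 tested, Hba-a1 and Hba-a2, were called higher. The summed T cell markers overlapped between the populations, at 4680 to 10120 CPM in GFP- and 5686 to 9993 CPM in GFP+. In sorted bulk samples fewer cells of a type and less RNA per cell cannot be told apart, and the part of these other cells in the results below was not tested.

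The start sites of 6 genes with a pyrimidine start and of 2 without one, from RefSeq promoter sequences of build GRCm38.p6, show the feature for which these genes are known. Each line gives 30 bases before and 20 bases from the annotated start on, 5′ to 3′ on the gene's own strand, and capitals mark the run of pyrimidines that begins with a C at the start. Rpl35 had the smallest p of the 73 genes tested, Rps18 the most negative fold change, Rps10 and Rpl28 lay lower in each GFP+ library than in each GFP- library of the same protocol, Rps6 is the target of the S6 kinases, and Rps27 was counted only in the poly(A) libraries. Rpl7l1 and Rpl11 were the 2 tested members with a higher mean in GFP+ under the single-cell protocol. Most genes shown were picked by their values, so they do not show how the fold change goes with the start. Rpl12, without the pyrimidine start, had a log2 fold change of -1.21, and Rpl38, with it, had -0.51. The regions are chr2:39005112-39005161 (Rpl35, minus strand), chr17:33955646-33955695 (Rps18, minus), chr17:27635225-27635274 (Rps10, minus), chr7:4792935-4792984 (Rpl28, plus), chr4:86857348-86857397 (Rps6, minus), chr3:90213629-90213678 (Rps27, minus), chr17:46782637-46782686 (Rpl7l1, minus) and chr4:136053374-136053423 (Rpl11, minus).
Rpl35: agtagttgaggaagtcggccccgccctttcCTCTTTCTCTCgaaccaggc
Rps18: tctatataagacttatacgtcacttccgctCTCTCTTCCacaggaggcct
Rps10: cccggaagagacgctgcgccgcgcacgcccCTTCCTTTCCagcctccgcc
Rpl28: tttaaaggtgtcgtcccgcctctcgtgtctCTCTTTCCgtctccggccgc
Rps6: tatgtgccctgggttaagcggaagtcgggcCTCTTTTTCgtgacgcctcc
Rps27: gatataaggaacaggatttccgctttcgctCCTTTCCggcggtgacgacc
Rpl7l1: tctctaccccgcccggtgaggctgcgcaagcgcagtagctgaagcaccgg
Rpl11: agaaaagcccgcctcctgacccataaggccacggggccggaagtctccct

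Of 64 ribosomal protein genes with such a sequence, 13 (20.3%) had a start of C and at least 4 further pyrimidines, against 467 of 17492 protein-coding genes (2.67%). The motif CCGGAAG, the core bound by ETS factors such as GABPA, was found on either strand of the 300 base promoter window in 26 (40.6%) of the 64, against 12.9% of protein-coding genes. The median log2 fold change between the populations, described below, was -0.89 for the 11 tested genes with the pyrimidine start and -0.79 for the 42 without it. These are matches to annotated starts, which were not measured in these cells.

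Ribosomal protein genes took a smaller share of the counts in GFP+ than in GFP- Treg under both protocols. In the poly(A) pair they held 3.12% of the counts of GFP- replicate 20 (95% Wilson interval 3.11 to 3.12) and 1.68% of those of GFP+ replicate 19 (1.67 to 1.68), a ratio of 0.538 with 1 library per population. In the single-cell protocol libraries they held 18.3% and 25.2% in GFP- replicates 2 and 5, and 13.8% and 14.5% in GFP+ replicates 1 and 4. The means were 21.8% ± 4.89 (SD, n = 2) and 14.2% ± 0.506 (SD, n = 2), and the GFP+ libraries lay below both GFP- libraries. The difference of -7.61 percentage points was -4.15 without GFP- replicate 5 and -11.1 without GFP- replicate 2, so its size rested on which of the 2 GFP- libraries was used. Each interval covers the counting error of 1 library only and holds no spread between libraries. It treats reads as independent, although the reads carry no molecular identifiers.

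**Figure D1:**
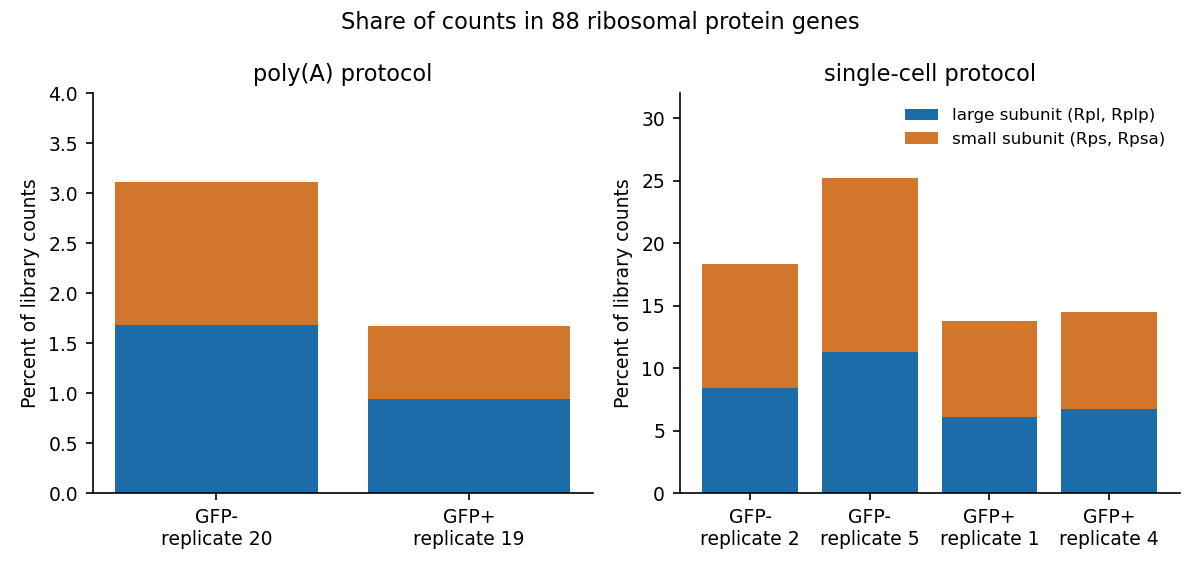
Share of each library's counts (percent, y axis) in the 88 genes, split into large subunit (lower bar part) and small subunit (upper part) genes, with the poly(A) libraries on the left and the single-cell protocol libraries on the right, on separate scales that start at 0. Both GFP+ single-cell protocol bars end below both GFP- bars, and the poly(A) GFP+ bar ends at 1.68% against 3.12%.

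The lower share held for both subunits. Among the 74 genes measured under both protocols, the large subunit held 1.25% in GFP- and 0.696% in GFP+ of counts in the poly(A) pair (ratio 0.555) and the small subunit 1.31% and 0.653% (ratio 0.501). In the single-cell protocol libraries the ratios of the mean shares were 0.649 for the large and 0.652 for the small subunit. The counts of large over small subunit genes stood at a ratio of 0.96, 0.857 and 0.81 in GFP- replicates 20, 2 and 5 and of 1.07, 0.787 and 0.864 in GFP+ replicates 19, 1 and 4. The populations thus overlapped in this balance, and it differed by protocol.

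Gene by gene, 73 members passed the filter on low counts, which ran over the 6 libraries together, and all 73 had a negative log2 fold change of GFP+ over GFP-, although none passed the threshold. Their median was -0.81 (quartiles -0.97 and -0.69), against -0.08 for all 10523 genes tested, of which 56.2% were negative. edgeR's quasi-likelihood test with the protocol as a covariate and Benjamini-Hochberg adjustment called 0 of the 73 lower and 0 higher at an adjusted p of 0.05, beside 3.68% of all genes called lower and 9.81% called higher. At an unadjusted p below 0.05, 27 of the 73 were lower and 0 higher, against 11.5% of all genes lower. The smallest adjusted p was 0.0712, for Rpl35. The median standard error was 0.39 for the members and 0.29 for all genes tested.

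The calls depended on the tool, the design and 2 of the libraries. DESeq2 called 19 of the 73 lower (6.79% of all genes), limma-voom 2, Rpl35 and Rpl5 (4%) and edgeR scaled to the library totals alone 17 (2.68%). With consecutive title numbers (1 and 2, 4 and 5, 19 and 20) as a block, a fit chosen after seeing the data, edgeR called 11 of the 73 and 12% of all genes lower. The block of 19 and 20 is the poly(A) pair, so this fit also adjusts for the protocol. Without GFP- replicate 2, edgeR called 58 of the 73 lower (5.6% of all genes) and the median was -1.10. Without GFP- replicate 5 it called 1, Rps15a (7.29% of all genes), the median was -0.43 and 67 of the 73 were negative. Rps15a had only 25, 8 and 7 counts in the single-cell protocol libraries of that fit, so this call is uncertain. With any other library left out edgeR called 0 and the median of the members lay between -0.78 and -0.91.

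**Figure D2:**
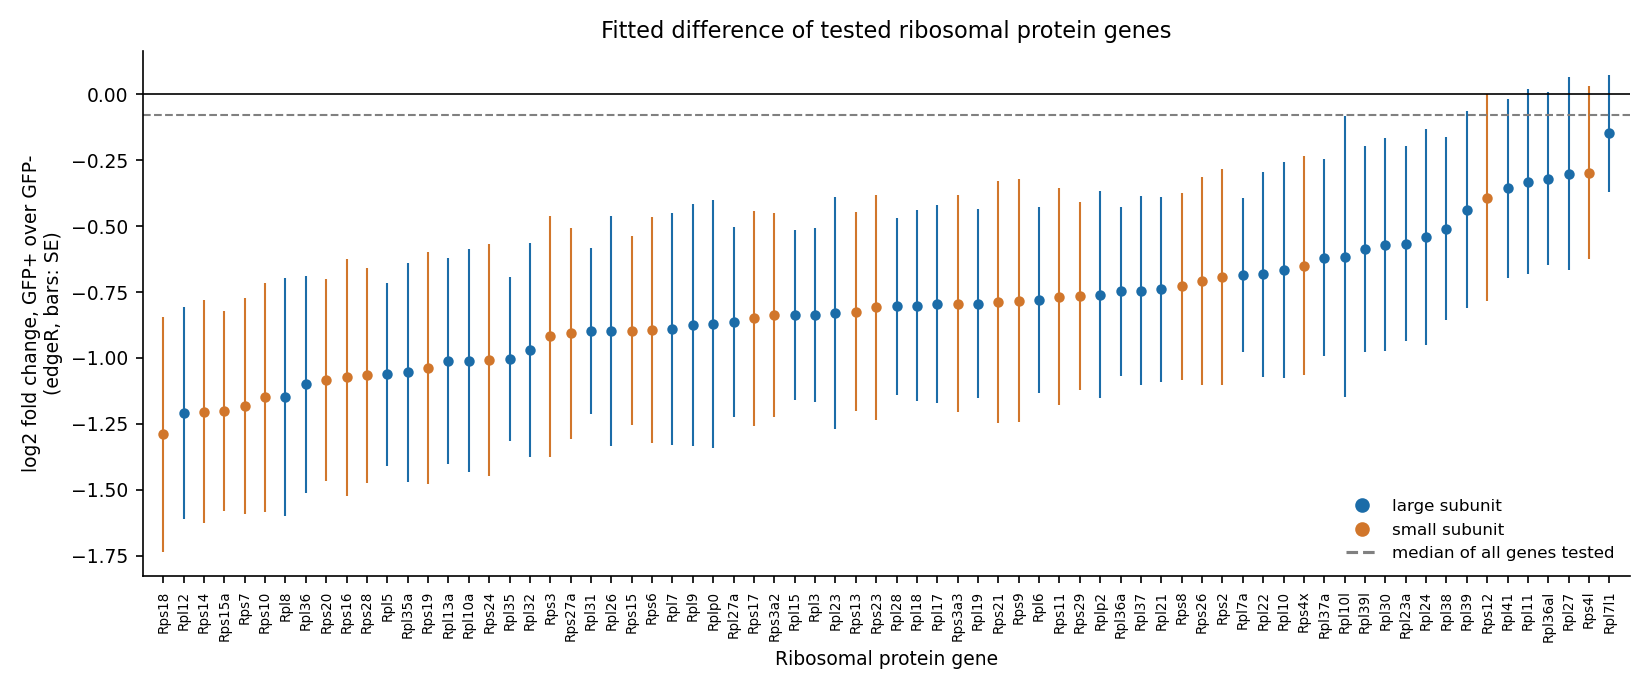
Fitted log2 fold change of GFP+ over GFP- (y axis, edgeR, bars are standard errors) for tested ribosomal protein genes (x axis), ordered from lowest to highest and coloured by subunit. The points shown lie below 0, from -1.29 for Rps18 to -0.15 for Rpl7l1, and the dashed line marks the median of all genes tested at -0.08.

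Without a fit, the same genes can be counted by whether their libraries overlap. In 37 of the 73, GFP+ lay below GFP- in the poly(A) pair and both GFP+ lay below both GFP- libraries of the single-cell protocol, on CPM to library totals, beside 8.88% of all genes tested. On CPM scaled by TMM factors, which correct for unequal library composition, the number was 26, beside 19.3% of all genes tested. No member lay above in this way on either scale. The 37 include genes of both subunits and of the P stalk.

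Of the large subunit, Rpl35, a protein at the peptide exit tunnel, stood at 103 (GFP-) against 46.8 CPM (GFP+) in the poly(A) pair. In the single-cell protocol libraries it stood at 857 and 710 CPM (GFP-) and at 554 and 364 CPM (GFP+), so the populations did not overlap, and the log2 fold change was -1.01 ± 0.31 (SE, edgeR adjusted p = 0.0712). Rpl5, which binds the small RNA of the large subunit and, when free of ribosomes, the p53 regulator Mdm2, stood at 280 against 129 CPM in the poly(A) pair. It stood at 2452 and 2786 against 1511 and 1505 CPM in the single-cell protocol libraries, again without overlap, with a log2 fold change of -1.06 ± 0.35 (edgeR adjusted p = 0.0855). Rpl12, a protein at the base of the stalk, had -1.21 ± 0.40 (edgeR adjusted p = 0.0904), the most negative value of the large subunit. Rpl3, next to the peptidyl transferase centre, stood at 427 against 232 CPM and at 3828 and 3427 against 2286 and 2456 CPM. At the other end Rpl7l1, Rpl27, Rpl36al and Rpl11 had log2 fold changes of -0.15, -0.30, -0.32 and -0.33, each within 1 SE of 0. Rpl11, the partner of Rpl5 in binding the small ribosomal RNA and Mdm2, stood at 291 and 351 CPM in GFP- and at 403 and 265 CPM in GFP+ single-cell protocol libraries, which overlap.

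Of the small subunit, Rps18, a protein of the head at the contact between the subunits, had the most negative log2 fold change, -1.29 ± 0.45 (edgeR adjusted p = 0.101). It stood at 172 against 73.1 CPM in the poly(A) pair and at 1322 and 2713 against 912 and 1135 CPM in the single-cell protocol libraries, where the populations did not overlap. Rps14, whose human counterpart lies in the region lost in the 5q- syndrome, stood at 1005 against 432 CPM and at 9657 and 11830 against 5957 and 5148 CPM, also without overlap. Rps6, phosphorylated by the S6 kinases downstream of mTOR, stood at 417 against 203 CPM and at 3043 and 4970 against 2928 and 2631 CPM, with a log2 fold change of -0.89 ± 0.43 (edgeR adjusted p = 0.227). Its GFP+ replicate 1 lay just under GFP- replicate 2 on this scale, and the populations overlapped on TMM-scaled CPM. Rps27a, which is made as a fusion with ubiquitin, had -0.91 ± 0.40 (edgeR adjusted p = 0.19).

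The P stalk recruits translation factors to the large subunit. Rplp0, its base, stood at 1716 against 1062 CPM in the poly(A) pair and at 12690 and 18520 against 7727 and 11990 CPM in the single-cell protocol libraries, without overlap on this scale but with overlap on TMM-scaled CPM (log2 fold change -0.87 ± 0.47, edgeR adjusted p = 0.281). Rplp2 stood at 341 against 215 CPM and at 3250 and 4582 against 2544 and 2890 CPM (-0.76 ± 0.39, edgeR adjusted p = 0.262). Rplp1, the partner of Rplp2, was listed at 0 in the single-cell protocol libraries and stood at 829 against 576 CPM in the poly(A) pair.

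The poly(A) pair alone, with no replicate, had 85 of 87 members lower in GFP+, with a median log2 ratio of -0.88 against -0.06 for all genes. Of the 86 with at least 10 counts in the pair, 75 were lower by 1.5-fold or more and 0 higher, beside 16.7% of all such genes lower by that much. The 2 higher genes were Rps4l and Rps27l. The difference compares these 2 libraries and has no replicate check.

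Of the members, 14 were listed at 0 in the 4 single-cell protocol libraries, all on chromosomes 3, 8 and 9, and can be followed only in this pair. There 13 of the 14 were lower in GFP+, with a median log2 ratio of -0.78. Rps27, a zinc finger protein of the small subunit, had the lowest ratio, with 5744 counts in GFP- and 2891 in GFP+ (-1.05, 95% counting interval -1.11 to -0.98). Rps3a1 followed at -1.04, Rpl4 at -0.88 with 1860 against 1011 CPM, Rpl13 at -0.87, Rpl34 at -0.86, Rpl14 at -0.83 and Rps25 at -0.80. Rpl22l1 stood at -0.76 and Rpl29 at -0.71. Rpsa, which is also known as the laminin receptor, stood at 657 against 425 CPM (-0.63), Rplp1 at -0.52 and the pseudogene Rps12l2 at -0.26. Rps27l, a paralog of Rps27 and a p53 target, went the other way, with 252 counts in GFP- and 326 in GFP+ (0.31, counting interval 0.07 to 0.56).

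**Figure D3:**
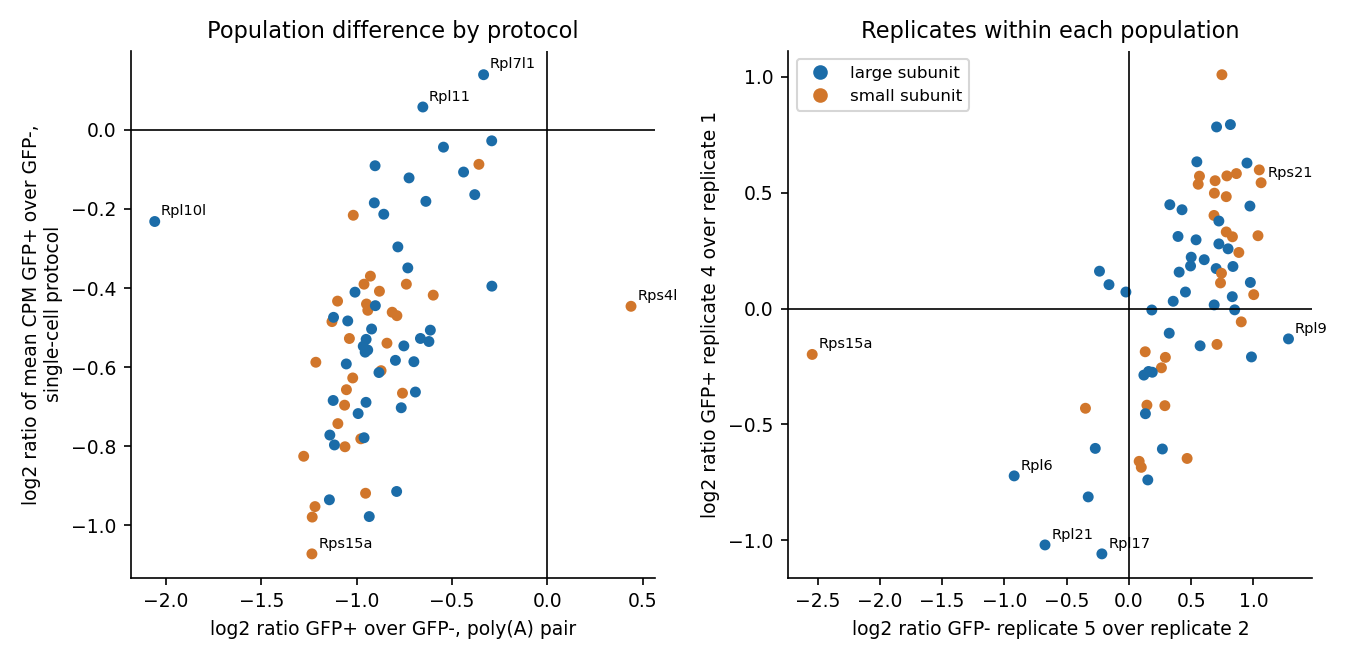
Left, log2 ratio of CPM of GFP+ over GFP- in the poly(A) pair (x axis) against that of the mean CPM of the single-cell protocol libraries (y axis) for the 73 tested genes. All but Rps4l lie left of 0, and all but Rpl7l1 and Rpl11 lie below 0. Right, log2 ratio of GFP- replicate 5 over replicate 2 (x axis) against GFP+ replicate 4 over replicate 1 (y axis), where 63 genes lie right of 0 and 44 above 0.

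The populations' difference was not seen to depend on the protocol at this depth of replication. The test of the interaction between population and protocol (edgeR, Benjamini-Hochberg, 2 residual degrees of freedom) called 0 of the 73 members and 0% of all genes, with 0 members and 24 of the 10523 genes at an unadjusted p below 0.05. Within the single-cell protocol alone, 38 of the 73 had both GFP+ below both GFP- libraries on CPM (9.23% of all genes tested) and 27 on TMM-scaled CPM (20.3%).

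Replicates of a population also differed in these genes. The median log2 ratio of GFP- replicate 5 over 2 was 0.56, with 63 of 73 members higher in replicate 5, and that of GFP+ replicate 4 over 1 was 0.11, with 44 higher. Over the 73 genes the 2 ratios correlated with Pearson's r of 0.559 and Spearman's rho of 0.622, as a description across genes that share these 4 libraries. Over 6247 other genes r was 0.551. Those genes had 50 or more counts in each single-cell protocol library, a limit not set for the members. Rpl6, Rpl21 and Rpl17 were among 7 members lower in both replicate 5 and replicate 4. Rpl6 stood at 4411 CPM in replicate 2 and 2329 CPM in replicate 5 of GFP-, and at 2578 CPM in replicate 1 and 1563 CPM in replicate 4 of GFP+.

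Several ribosomal proteins have a paralog, and the gene pairs differed in the balance of counts. The percentages below are of raw counts and are not scaled to gene length. They can be read between libraries for a gene pair, but not between gene pairs. Rpl7l1 is 2606 and Rpl7 934 bases long, and Rpl22l1 477 and Rpl22 2040. Per kilobase, GFP- replicate 20 had 30.9 CPM for Rpl7l1 and 594 for Rpl7, and 20.4 for Rpl22l1 and 94.3 for Rpl22. Rps27l reached 4.39% of the counts of Rps27 in the GFP- and 11.3% in the GFP+ poly(A) library. Rpl7l1, a paralog of Rpl7 known from ribosome assembly, reached 14.5% and 22.3% of Rpl7 in the same pair, but 0.399% and 0.21% in GFP- replicates 2 and 5 and 0.436% and 0.482% in GFP+ replicates 1 and 4. The GFP+ shares of Rpl7l1 were the higher under both protocols without overlap, and Rpl7 itself stood at 555 against 286 CPM and at 5106 and 8210 against 4485 and 4534 CPM. Rpl36al exceeded Rpl36a in the poly(A) pair, at 268% and 370%, and stood at 109% and 78.1% in GFP- and 137% and 93.9% in GFP+ single-cell protocol libraries, which overlap. Rpl22l1 over Rpl22 was 5.06% and 4.96% in the poly(A) pair, where Rpl22l1 had 265 and 163 counts. Rpl10l and Rpl3l, paralogs known from testis and from muscle, had at most 48 and 13 counts in a library. Rpl39l, also known from testis, stood at 2.72 and 2.22 CPM in the poly(A) pair and at 15.8 and 27.7 CPM (GFP-) and 12.1 and 21.0 CPM (GFP+) in the single-cell protocol libraries, which overlap.

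As CPM per kilobase of gene length, the level of Rpl8 ranked highest by mean rank over the 6 libraries among the 74 members measured under both protocols, with a mean of 2143 in the poly(A) and 13640 in the single-cell protocol libraries. Rps14 (1204 and 13650) and Rps9 (1296 and 11660) followed. Rpl3l, Rpl10l and Rps15a ranked lowest. Of the 14 members without such a rank, Rplp1 had the highest level in the poly(A) libraries, 1501.

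The members' counts differed more between protocols than between populations. In the same edgeR fit, 71 of the 73 were called lower in the poly(A) libraries (30.5% of all genes) and 1 higher (34.6% of all genes), with a median log2 difference of -4.54 against 0.15 for all genes. Rpl7l1 stood at 0.57. The members are short, with a median length of 725 bases against 2557 for the genes tested, and 58 of the 73 are under 1000 bases, against 14.7% of those genes. The part of length in the protocol difference was not tested.

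Rps15a was the 1 gene higher in the poly(A) libraries, by 6.43 on the log2 scale. It had 5266 and 2331 counts in the GFP- and GFP+ poly(A) libraries, but 25, 4, 8 and 7 in GFP- replicates 2 and 5 and GFP+ replicates 1 and 4. The 6 rows named as its pseudogenes held 103153, 177287, 79122 and 108506 counts in those 4 libraries. In the GFP- and GFP+ poly(A) libraries these rows held 16130 and 7744 counts, 75.9% of the family's counts in that pair. Reads of Rps15a and of its copies cannot be told apart in these tables, so its values are uncertain.

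Ribosomal protein genes have many processed copies in the mouse genome, and reads from near-identical copies can be counted to either. In the GENCODE M21 transcripts of build GRCm38, 87 members had a transcript, a median of 57.4% of their 50-base stretches occurred in another gene, and 3 members shared none. Spearman's rho between the shared percent and the log2 fold change was -0.01 over the 73 genes, as a description. The medians were -0.80 for 43 genes above 50% and -0.83 for 30 at or below it. Rpl35, the gene with the smallest p, had the highest shared percent, 95.1%, and Rpl5 had 93.8%. A row named as a pseudogene of Rpl5 held 46.9% of the counts of both in the poly(A) pair. The counts of Rpl35 and Rpl5 are therefore uncertain.

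Rpl39, a very small protein lining the exit tunnel, is shown with its copy because nearly all counts of the pair went to the pseudogene row. Its row had 105 and 84 counts in the poly(A) pair, while the row of its pseudogene Rpl39-ps had 4416 and 3682, 97.7% of the counts of both. The first 150 bases of the coding sequence of Rpl39 (chromosome X) and the matching stretch of Rpl39-ps (chromosome 15) are 99.3% identical. Both stretches are from GENCODE M21 transcripts of build GRCm38 and end before a stop codon. They differ by T96C, counted from the first base of the start codon, which the capital letter marks.
Rpl39: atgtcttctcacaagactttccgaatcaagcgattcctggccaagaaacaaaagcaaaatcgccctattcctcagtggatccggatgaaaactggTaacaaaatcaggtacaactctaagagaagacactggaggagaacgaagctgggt
Rpl39-ps: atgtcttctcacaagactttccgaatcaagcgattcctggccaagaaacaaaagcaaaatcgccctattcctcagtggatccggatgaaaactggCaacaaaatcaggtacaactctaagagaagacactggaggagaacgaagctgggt

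The 39 rows named as ribosomal protein pseudogenes also took a smaller share of the counts in GFP+. They held 0.331% of counts in GFP- and 0.174% in GFP+ of the poly(A) pair, and means of 2.63% ± 0.901 and 1.75% ± 0.0808 (SD, n = 2 each) in the single-cell protocol libraries, where GFP- replicates 2 and 5 stood at 1.99% and 3.26% and GFP+ replicates 1 and 4 at 1.69% and 1.81%. Of these rows 35 were tested, 35 had a negative log2 fold change with a median of -0.93, and 1, Rpl31-ps21, was called lower by edgeR (-0.94 ± 0.22, adjusted p = 0.0225), beside the 3.68% of all genes. In 9 of 15 families with such rows, the pseudogene rows held most of the counts of the poly(A) pair, as for Rps12 (88.6%), Rpl31 (85.9%) and Rps23 (80.0%). Values of these genes are uncertain where reads could be split among copies.

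**Figure D4:**
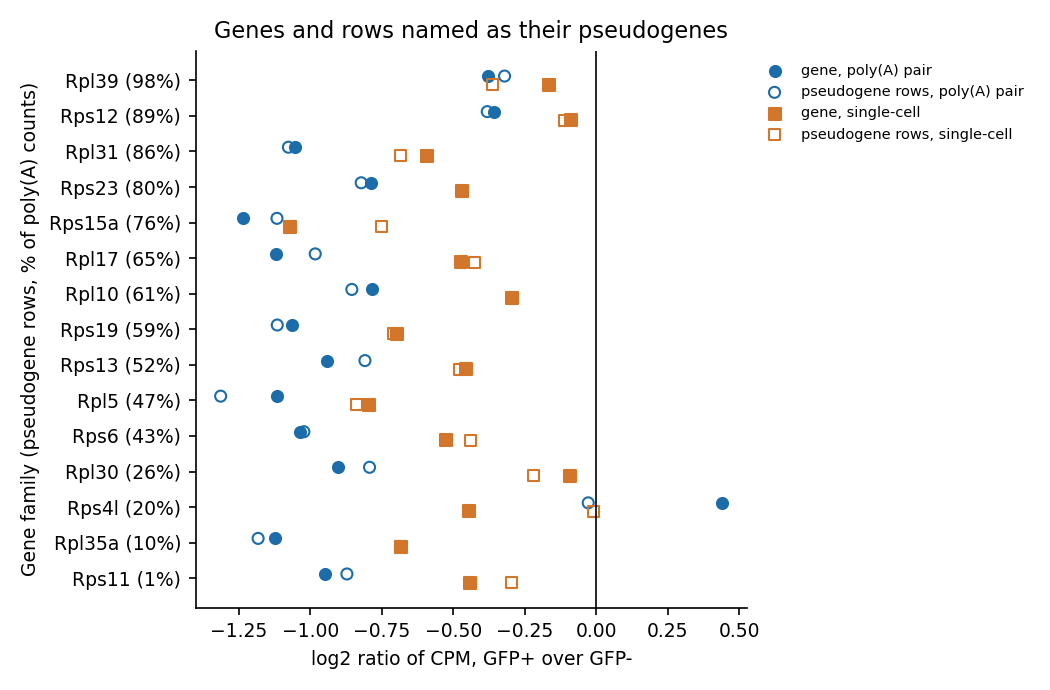
Log2 ratio of CPM of GFP+ over GFP- (x axis) for 15 ribosomal protein genes (filled) and for the rows named as their pseudogenes (open), in the poly(A) pair (circles) and in the single-cell protocol libraries (squares, mean CPM), with the pseudogene rows' percent of the family's poly(A) counts beside each name (y axis). Genes and copies lie on the same side of 0 except Rps4l in the poly(A) pair, and families whose pseudogene rows are listed at 0 in the single-cell protocol lack the open square.

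Lists of other genes of the ribosome and of its production are read beside the 3.68% of all genes called lower and the 56.2% with a negative log2 fold change. Among ribosomal proteins that the symbol rule misses, Gnb2l1 (RACK1, a scaffold on the small subunit) had a log2 fold change of -1.18 ± 0.49 (edgeR adjusted p = 0.168) and Fau, a ubiquitin-like fusion with a small subunit protein, -0.87 ± 0.43 (edgeR adjusted p = 0.233). Neither passed, and their median was -1.03. Of 39 ribosome biogenesis genes tested, 3 were called lower and 0 higher, and 35 were negative, with a median of -0.47. The 3 were Nop56, a core protein of box C/D particles (-0.94 ± 0.21, edgeR adjusted p = 0.0197), the rRNA methyltransferase Nop2 (-0.76 ± 0.21, edgeR adjusted p = 0.0435) and the RNA polymerase I subunit Polr1b (-0.94 ± 0.25, edgeR adjusted p = 0.0384). Nop56 stood at 98.3 against 55.0 CPM in the poly(A) pair and at 154 and 82.4 against 59.8 and 68.6 CPM in the single-cell protocol libraries, without overlap.

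Among 13 tested genes that control ribosomal protein messengers, 1 was called lower, 0 were called higher and 13 were negative, with a median of -0.31. That gene was Myc, at 192 against 79.8 CPM in the poly(A) pair and 69.1 and 46.5 against 9.64 and 19.5 CPM in the single-cell protocol libraries (log2 fold change -1.86 ± 0.30, edgeR adjusted p = 0.0041). Larp1 had -0.49 ± 0.26 (edgeR adjusted p = 0.264) and Mtor -0.28 ± 0.37 (edgeR adjusted p = 0.675). Eif4ebp1, of the same list, was at 0 in the single-cell protocol libraries and was not tested. It stood at 12.8 CPM in the GFP- and 28.9 CPM in the GFP+ poly(A) library, a log2 ratio of 1.17. Of 33 translation factors, 0 were called and 27 were negative, with a median of -0.39. Of 65 mitochondrial ribosomal proteins, which serve a separate ribosome, 0 were called and 48 were negative, with a median of -0.22. No difference between these lists and the cytosolic ribosomal proteins was tested.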

How the data were processed

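RNA of sorted mouse Treg was measured in 6 libraries, 3 per population. The authors deposited a table of raw read counts by Entrez gene for each protocol, and log2 RPKM values, which the authors scaled to gene length and library size. The submitters' processing notes name Subread, featureCounts, edgeR and build mm9, with versions, strand and treatment of multiply aligned reads not given in the sources used here.

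Population differences were fitted with edgeR 4.0.16 (R 4.3.3, TMM factors, filterByExpr, quasi-likelihood test, protocol as covariate, 3 residual degrees of freedom), with Benjamini-Hochberg adjustment over 10523 genes and a threshold of 0.05. Rows at 0 in the 4 single-cell protocol libraries entered no fit. The edgeR test returns no standard error. Those given here are the absolute log2 fold change divided by the square root of the test's F statistic. The fit was tested on simulated counts with changes larger than those of the members, so that test does not show its power for them. Alternatives used DESeq2 1.42.0, limma 3.58.1 (voom, and the deposited log2 RPKM), other scalings and filters, and left out each library. CPM used library totals, with depths of 15224051 to 28354321 counts. Promoter and transcript sequences came from GRCm38, and no coordinate of the files' build was used.

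Members and gene lists were chosen with earlier results of these data known. Named genes were those with calls or the smallest p, paralog pairs with their partners, the P stalk, Rpsa and Rps6, the 3 highest and 3 lowest per kilobase, genes at 0 in the single-cell protocol, and up to 4 with the smallest p for interaction and protocol, and some of these are not reported here. Further genes, chosen after their values were seen, were Rpl5, Rpl6, Rpl12, Rpl21, Rpl27, Rpl28, Rpl31, Rpl38, Rps12, Rps18 and Rps23. Marker lists of B, plasma, natural killer and CD8 T cells had 0, 1, 1 and 0 genes called higher and 0, 0, 1 and 1 lower. The T cell list had 0 higher and 1 lower of 9 tested.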

Additional observations from a re-analysis of the deposited data

Results flagged for a closer look

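Rps4l, a transcribed pseudogene related to Rps4x, went in opposite directions under the 2 protocols in every library. It stood at 5.62 CPM in the GFP- and 7.62 CPM in the GFP+ poly(A) library, a log2 ratio of 0.44, and at 11.2 and 12.3 CPM in GFP- against 9.18 and 8.07 CPM in GFP+ single-cell protocol libraries, a log2 ratio of mean CPM of -0.45. The test of the interaction had a log2 size of 1.05 and an unadjusted p of 0.181 (edgeR, adjusted p = 1.0), so the 2 protocols were not shown to differ for this gene. It had between 142 and 216 counts in a library.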

How the results depend on the processing

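The direction of the members' median held under the alternatives run, from -0.43 to -1.10 with single libraries left out, but the count of members called lower did not. Against 0 by edgeR, it was 17 with library totals alone, 16 with no filter on low counts (5.29% of all genes), 19 with DESeq2, 2 with limma-voom, 5 with the deposited log2 RPKM and limma (5.19%), and 0 to 58 with single libraries left out (58 without GFP- replicate 2, and 1 when GFP- replicate 5 was left out). The populations share no replicate number in the titles, and no label says that consecutive numbers mark pairs. The main fit has no term for such pairs. Ratios of GFP- replicate 5 over 2 and GFP+ replicate 4 over 1 correlated with Pearson's r of 0.559 over the members. Over 6247 other genes r was 0.551, with a minimum of 50 counts per single-cell protocol library that was not set for the members. Whether the libraries were made in such pairs was not tested. Consecutive title numbers used as a block, an alternative chosen after seeing the data, gave 11 calls beside 12% of all genes. Members called higher in the poly(A) libraries numbered 2 with library totals. The poly(A) share difference of -1.44 percentage points was -1.43 with rows at 0 left out and -1.62 with pseudogene rows and ribosomal protein genes outside the symbol rule added. Over single libraries left out, the log2 fold changes of Rpl10l (-1.22 to 0.20), Rpl39 (-0.79 to 0.0575), Rpl39l (-0.95 to 0.0233) and Rps4l (-0.66 to 0.0655) reversed, each without GFP- replicate 5. The cause was not tested. With 1 poly(A) library per population, the genes of chromosomes 3, 8 and 9 have no replicate.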
